A study of Mus musculus with 6 samples.

Results

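The protein-coding mouse genes named Zfp900 to Zfp999 are recently named members of the large zinc-finger gene family. They were chosen by symbol, the letters Zfp followed by a 3-digit number starting with 9, and 63 of the 55471 gene identifiers in the count tables met that rule. The group was proposed with the reads of these libraries known, so every value of the comparison between the groups is given as a description. The RNA came from embryoid bodies, floating aggregates of differentiating cells, that mouse epiblast stem cells had formed during 2 days in serum. The 3 libraries called induced come from a line with inducible Mixl1, a homeobox factor of the primitive streak, treated with 1 µg/mL of doxycycline for 24 h. The 3 libraries called KO carry the label Mixl1 KO. The labels give no strain, no number of clones, no altered exon of Mixl1 and no statement on doxycycline for the KO cells, so line, genotype and drug cannot be told apart. Both lines were grown beforehand on irradiated fibroblast feeders, in 20 ng/mL of Activin A and 10 ng/mL of bFGF.

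Most genes of this name encode proteins with a KRAB domain at the start and a row of C2H2 zinc fingers, each a small zinc-held fold that contacts a few DNA bases. The KRAB domain recruits the corepressor TRIM28, which brings histone methyltransferase and heterochromatin proteins to the bound site. Such proteins are best known for silencing transposable elements and for protecting imprinted methylation in pluripotent cells and early embryos. The family grew by local duplication, so many members sit side by side and resemble each other closely. ZFP932, for example, is known to repress endogenous retroviruses in mouse embryonic stem cells, whereas little is known of most other members.

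All 9 listed epiblast markers were read in all 6 libraries, with a summed level of 2205 to 2359 CPM in induced libraries and 3733 to 3990 CPM in KO libraries. Of these 9, 5 were higher in induced libraries (Sox2, Fgf5, Tdgf1, Otx2 and Utf1) and 4 were lower. The lower sum in induced libraries rests on T, at 204.8 CPM in induced and 1807 CPM in KO libraries. Without T, the sum of the other markers was not lower in induced libraries. Pou5f1 was also lower, at 807.1 CPM in induced and 1294 CPM in KO libraries. Tdgf1 moved the other way, at 760.6 CPM in induced and 254.0 CPM in KO libraries. Reads on genes ranged from 17490426 to 21026423 per library. Mixl1 averaged 432.5 ± 7.54 CPM in induced libraries and 39.8 ± 2.96 CPM in KO libraries (SD, n = 3 each; CPM is a gene's reads scaled to a common library size after TMM normalization). All 7 macrophage markers were lower in the induced group, with a summed level of 44.8 to 55.3 CPM in induced libraries and 306.3 to 441.8 CPM in KO libraries. Fibroblast markers, which feeder cells would carry, summed to 422.4 to 587.5 CPM in induced libraries and 595.9 to 755.2 CPM in KO libraries, with 3 of 9 higher and 5 lower. The part of either cell type in the values below was not tested. In bulk RNA, fewer cells of a type and less RNA per cell cannot be told apart. The calls of these marker lists stand beside 31% higher and 31.6% lower over all tested genes.

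Promoter sequences of 4 members are shown first. Zfp951 is the gene with the largest difference, and Zfp982, Zfp985 and Zfp984 are copies from a single array of which the first 2 were higher and the last was lower in induced libraries. Each is the 250 bases before a RefSeq start in GRCm38.p6, the mm10 assembly, read 5′ to 3′ along the gene. Capitals mark the letters TAATNNATTA, a spacing of homeobox half-sites, and CCAAT, searched on both strands, so that CCAAT on the other strand reads ATTGG. The windows lie at chr5:104860028-104860277 on the minus strand (Zfp951), chr4:147492167-147492416 on the plus strand (Zfp982), chr4:147553027-147553276 on the plus strand (Zfp985) and chr4:147809789-147810038 on the minus strand (Zfp984).
Zfp951: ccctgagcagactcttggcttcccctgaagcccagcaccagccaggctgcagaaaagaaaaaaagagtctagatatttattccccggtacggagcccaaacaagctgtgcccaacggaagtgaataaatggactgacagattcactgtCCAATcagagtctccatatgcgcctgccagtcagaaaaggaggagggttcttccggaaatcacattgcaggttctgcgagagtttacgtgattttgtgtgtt
Zfp982: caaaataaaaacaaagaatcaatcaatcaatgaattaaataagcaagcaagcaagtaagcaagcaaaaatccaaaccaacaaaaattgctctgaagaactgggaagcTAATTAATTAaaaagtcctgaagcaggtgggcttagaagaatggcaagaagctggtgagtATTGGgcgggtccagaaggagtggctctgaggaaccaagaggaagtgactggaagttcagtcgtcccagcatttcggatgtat
Zfp985: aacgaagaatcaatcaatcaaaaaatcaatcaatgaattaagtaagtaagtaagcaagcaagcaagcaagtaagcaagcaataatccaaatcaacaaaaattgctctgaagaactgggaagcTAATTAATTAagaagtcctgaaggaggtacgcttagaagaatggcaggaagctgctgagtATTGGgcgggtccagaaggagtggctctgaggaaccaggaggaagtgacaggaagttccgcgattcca
Zfp984: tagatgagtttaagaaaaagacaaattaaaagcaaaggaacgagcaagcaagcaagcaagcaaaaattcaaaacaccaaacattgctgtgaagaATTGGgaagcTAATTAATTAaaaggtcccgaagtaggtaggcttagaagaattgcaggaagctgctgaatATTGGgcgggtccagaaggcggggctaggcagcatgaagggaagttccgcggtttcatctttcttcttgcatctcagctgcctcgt

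A promoter in this table was found for 53 of the 63 members, 60 windows in all, since some genes have several starts. TAATNNATTA occurred in 6 of the 60 windows (10.0%), against 0.38% of all 32851 promoter windows. All 6 were on chromosome 4, in the copies Zfp980, Zfp982, Zfp984, Zfp985, Zfp987 and Zfp988, whose promoters, set beside each other at their best ungapped offset, share 61.1% to 91.1% of their letters and so are not separate occurrences. Of these 6 genes, Zfp982 and Zfp985 were higher in induced libraries, Zfp984 was lower, and 3 had too few reads to be tested. Zfp982 has further windows at other starts, and only the window shown above holds TAATNNATTA. TAATNNNATTA, with a spacer of 3 bases, occurred in none of the 60 windows and in 0.46% of all. CCAAT occurred in 46 of the 60 windows (76.7%), against 33.9% of all promoter windows, and TATAAA in none, against 12.4% of all. Some windows belong to the same gene and overlap, and some copies have near-identical promoters. The 60 windows are therefore not separate occurrences for these letters either. A match is a description of letters, not of a bound site.

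Zfp951 was the only member that was read in one group and close to absent in the other. The induced libraries held 251, 205 and 184 reads of Zfp951, and the KO libraries held 1, 0 and 0. The groups lie far apart, and 640 reads stand against 1 read. The ratio of induced to KO was 652.3 with an exact 95% counting interval of 116.7 to 25804, which covers counting error only. Zfp951 (ENSMUSG00000072774) occupies chr5:104813169-104860070 in mm10, minus strand, and no other annotated gene overlaps it. Zfp951 shares 1.60% of its 50-base transcript words with annotated transcripts of other genes. Copies outside annotated transcripts could not be counted. The level was 11.3 ± 1.09 CPM in induced libraries and 0.016 ± 0.028 CPM in KO libraries (SD, n = 3 each). In the authors' deposited table, Zfp951 had a log2 fold change of 9.25 with a standard error of 1.19. Because the KO sum is 1 read, the fitted size depends on how such counts are moderated.

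The share of members switched between 0 to 3 reads in one group and 100 or more in the other, summed over 3 libraries, was 1 of 63, or 1.59% (exact 95% binomial interval 0.0402% to 8.53%). The interval is a description and not a test, since the members were proposed with these reads known and many are copies of each other. Among the other 21911 protein-coding genes, 17 met the same thresholds (0.0776%), 10 of them at 0 to 3 reads in KO libraries (0.0456%) and 7 in induced libraries (0.0319%). None of the 302 other numbered Zfp genes did, which allows a share of up to 0.993% if 3 genes are taken as the upper limit of a count of 0. Apart from Zfp951, members near either threshold were far from meeting the other. On the low side, Zfp989 had 3 reads in each group and Zfp972 had 4 reads in induced and 2 in KO libraries, while Zfp967 had 8 in induced and 4 in KO libraries. On the high side, Zfp947 had 109 reads in induced and 60 in KO libraries, and Zfp990, just under 100, had 99 in induced and 85 in KO libraries. No member had 100 or more reads in KO libraries and 3 or fewer in induced libraries.

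**Figure D1:**
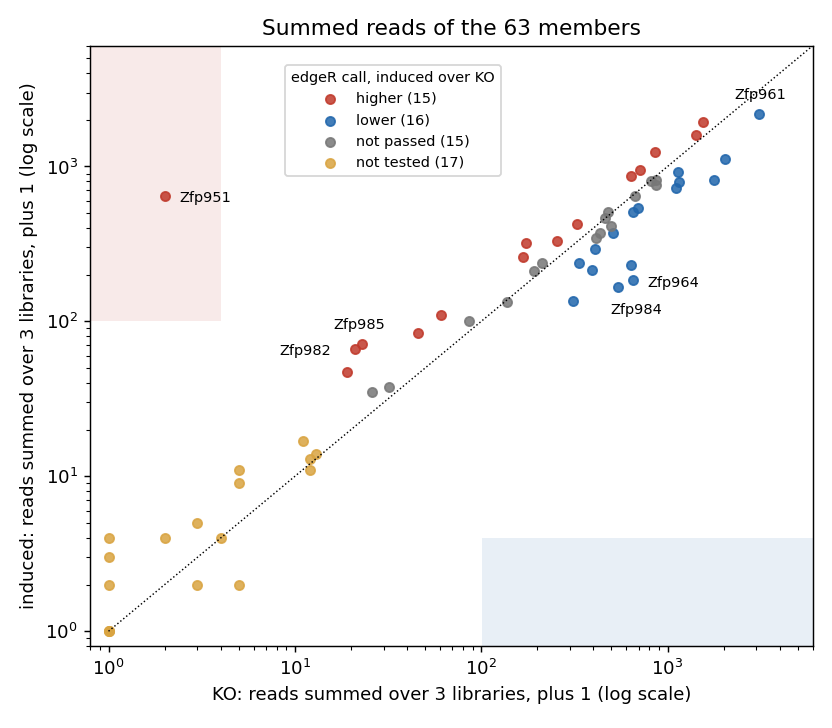
Reads of each of the 63 members summed over the 3 induced libraries (vertical axis) and over the 3 KO libraries (horizontal axis), plus 1, on log scales, coloured by the edgeR call. The shaded corners hold genes with 0 to 3 reads in one group and 100 or more in the other; Zfp951, with 640 reads against 1, is alone in them.

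None of the tested genes around Zfp951 was higher in induced libraries. Within 500 kb on either side, 10 other protein-coding genes are annotated, of which 4 were tested, 0 were higher, 3 were lower and 1 did not pass. These counts stand beside 31% higher and 31.6% lower over all tested genes, and 4 genes are too few to be set apart from those shares. These neighbours were picked for their position, after their values were seen. Spp1, which encodes the secreted protein osteopontin and is abundant in macrophages, had 1801, 1419 and 1177 reads in induced libraries and 8331, 9018 and 8376 in KO libraries. Gbp9 and Gbp4, genes of interferon-inducible guanylate-binding proteins on the other side, were 2.92-fold and 2.11-fold lower in induced libraries. Their annotated spans overlap on the same strand. Pkd2, which encodes the polycystin-2 channel, had 1137, 939 and 888 reads in induced libraries and 1024, 925 and 969 in KO libraries, so its raw counts overlap. Abcg3, the nearest gene toward the Gbp genes, had 1 read in induced libraries together and 10 in KO libraries together.

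Members with few counted reads had mostly shared sequence. The transcripts of each member were divided into words of 50 bases, and the share of words also found in a transcript of another gene was taken from GENCODE M21, which was not part of the choice of members. Copies in the genome outside annotated transcripts were not counted. Of the 11 members with 10 reads or fewer in all 6 libraries together, 10 shared more than 50% of their words, with a median of 89.0%. Of the 52 members with more reads, 9 did, with a median of 15.8%. Across all 63 members, reads per kb of exon and shared words had a Spearman rho of -0.61. This is a correlation across genes that share libraries and in part share sequence. Zfp957, with 1 read in all and 0.200% shared words, is the 1 gene among the 11 that shares 50% or less. Words of 100 bases gave medians of 73.2% and 3.40% for the same sets. Multimapped reads made up 6.79% to 6.97% of all reads in induced libraries and 7.43% to 7.66% in KO libraries, and their part in the members' counts was not tested.

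**Figure D2:**
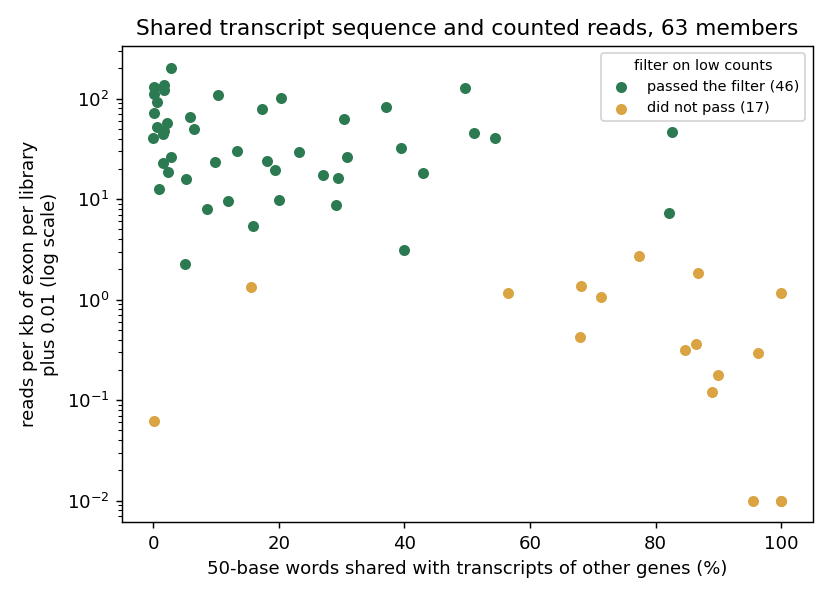
Reads per kb of exon per library, plus 0.01, on a log scale, against the percentage of 50-base transcript words shared with other genes, for 63 members. Members that passed the filter on low counts lie mostly to the left, with a median of 11.2% shared words, and those that did not lie mostly to the right, with a median of 86.4%.

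The 3 members at 0 reads in every library were Zfp935, Zfp968 and Zfp969, with 100%, 95.5% and 100% of their words shared. For such genes, 0 unique reads does not show that the gene is silent. The promoters of Zfp965 and Zfp971, both in the array on chromosome 2, show how close the copies are. The 2 windows of 250 bases differ at 7 positions (97.2% identical), shown here in capitals, and lie at chr2:175469775-175470024 (Zfp965) and chr2:178023034-178023283 (Zfp971), both on the plus strand.
Zfp965: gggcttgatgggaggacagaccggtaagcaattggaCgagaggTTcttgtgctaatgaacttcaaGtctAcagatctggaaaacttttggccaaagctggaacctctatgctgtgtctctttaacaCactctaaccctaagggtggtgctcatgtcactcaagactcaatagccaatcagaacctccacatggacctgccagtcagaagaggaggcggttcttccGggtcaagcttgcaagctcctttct
Zfp971: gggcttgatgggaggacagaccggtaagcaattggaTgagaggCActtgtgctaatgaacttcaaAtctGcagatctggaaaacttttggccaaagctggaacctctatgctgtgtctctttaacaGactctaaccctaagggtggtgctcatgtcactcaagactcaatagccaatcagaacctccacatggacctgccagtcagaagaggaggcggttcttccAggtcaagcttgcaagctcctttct
Zfp971, which shares 51.1% of its words, had 113, 96 and 121 reads in induced libraries and 91, 80 and 83 in KO libraries. Zfp965, which shares 96.3%, had 1, 0 and 2 reads in induced libraries and 0, 1 and 0 in KO libraries. Still closer promoter pairs were Zfp966 and Zfp967, identical over all 250 bases, and Zfp968 and Zfp973, which were 99.6% identical.

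Of the 63 members, 46 passed the filter on low counts and were tested, and the other 17 had 0 to 26 reads in the 6 libraries together. Zfp951, Zfp941, Zfp982 and Zfp985, each with 10 reads or fewer in every KO library, passed only through their induced libraries. The tested members therefore do not stand for all members. These genes are among those counted below as higher and as changed at least 2-fold, so those counts are in part set by the filter. In the edgeR quasi-likelihood fit over all genes, 15 of the 46 were higher in induced libraries (32.6%, against 31% of all tested genes) and 16 were lower (34.8%, against 31.6%). At an adjusted p of 0.05, 62.6% of all tested genes were called in either direction. For 32 of the 46, the CPM ranges of induced and KO libraries lay apart (69.6%, against 67.1% of all tested genes). A called change of at least 2-fold was seen for 9 of the 46 (19.6%, against 16.1% of all). The median log2 fold change was -0.0032 over the 46 and 0.0038 over all tested genes, and the median size of the log2 fold change was 0.45 and 0.32. Some of the 46 have few reads and an SE of up to 0.44, and the part of such error in the median size was not tested. The 302 other numbered Zfp genes gave 66 higher and 86 lower of 283 tested, 6.36% called at 2-fold or more, and a median size of 0.26.

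Summed over all 63 members, the level was 417.4, 433.8 and 439.9 CPM in induced libraries and 479.6, 483.7 and 490.7 CPM in KO libraries. The groups do not overlap, and the sum is dominated by the most abundant genes. Per kb of exon, the highest members were Zfp961 with 8.92 CPM per kb in induced and 12.5 in KO libraries, Zfp954 with 5.85 in induced and 8.40 in KO libraries, and Zfp948 with 8.26 in induced and 5.55 in KO libraries. Zfp961 was the most abundant member in both groups on that scale. It had 765, 666 and 752 reads in induced libraries and 1035, 967 and 1104 in KO libraries, and the groups do not overlap. Its log2 fold change was -0.48 (SE 0.065). Zfp930, the first gene of a run on chromosome 8, had 693, 563 and 668 reads in induced libraries and 550, 483 and 525 in KO libraries, with a log2 fold change of 0.33 (SE 0.069).

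Among members that fell, the largest changes were those of Zfp964, Zfp984, Zfp974, Zfp963 and Zfp946, each at least 2-fold. Zfp964, on chromosome 8 from 69654479 to 69666982, had 75, 50 and 60 reads in induced libraries and 232, 204 and 219 in KO libraries. All KO values lie above all induced ones, and the log2 fold change was -1.80 (SE 0.13). Zfp984, on chromosome 4 from 147753974 to 147809788, had 56, 48 and 61 reads in induced libraries and 199, 167 and 174 in KO libraries, with a log2 fold change of -1.68 (SE 0.14). Again the groups lie apart, but Zfp984 shares 54.5% of its words, mostly with the predicted gene Gm13212, so its counts are uncertain. Zfp974, on chromosome 7, had 69, 73 and 89 reads in induced libraries and 228, 190 and 221 in KO libraries, with a log2 fold change of -1.43 (SE 0.14). It has the most finger patterns of any member, 21. Zfp963, next to Zfp964, fell by 1.19 on the log2 scale, and Zfp946 fell to 14.4 ± 0.309 CPM in induced libraries, against 30.6 ± 2.16 CPM in KO libraries (SD, n = 3 each). The next largest were Zfp983 at -0.86, Zfp945 at -0.83, Zfp944 at -0.58 and Zfp954 at -0.52. The groups did not overlap for any of the 16 that fell, while they lay apart for 67.1% of all tested genes. The 16 were picked by their call, so the lack of overlap is not separate support. The other 6, beside Zfp961, lay between -0.46 and -0.28.

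The larger rises after Zfp951 were mostly in genes with few reads. Zfp982 had 24, 20 and 21 reads in induced libraries and 10, 6 and 4 in KO libraries, with a log2 fold change of 1.71 (SE 0.36). Zfp985, the next member along the same array on chromosome 4, had 31, 22 and 18 reads in induced libraries and 9, 8 and 5 in KO libraries, with a log2 fold change of 1.70 (SE 0.35). The groups do not overlap for either gene, and both have few reads and wide errors. Zfp982, Zfp985 and Zfp941 passed the filter on low counts only through their induced libraries. Their rises and lack of overlap therefore describe genes that were tested because they were high in that group. Zfp992 was better covered, with 114, 99 and 109 reads in induced libraries and 60, 58 and 55 in KO libraries, and a log2 fold change of 0.92 (SE 0.15), though it shares 43.0% of its words. Zfp941, on chromosome 7, had 15, 17 and 14 reads in induced libraries and 5, 6 and 7 in KO libraries. Zfp991, which shares 82.2% of its words, so that its counts are uncertain, had a log2 fold change of 0.91 (SE 0.30). Zfp947 had 0.88 (SE 0.28), and it is the 1 gene of the 14 rises after Zfp951 whose groups overlap in CPM. The groups lay apart for 67.1% of all tested genes. These rises were picked by their call, so the lack of overlap is not separate support. Zfp979, Zfp948, Zfp952 and Zfp970 rose by 0.67, 0.57, 0.48 and 0.44 on the log2 scale, with Zfp948 at 21.9 ± 1.90 CPM in induced libraries and 14.7 ± 1.02 CPM in KO libraries (SD, n = 3 each).

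**Figure D3:**
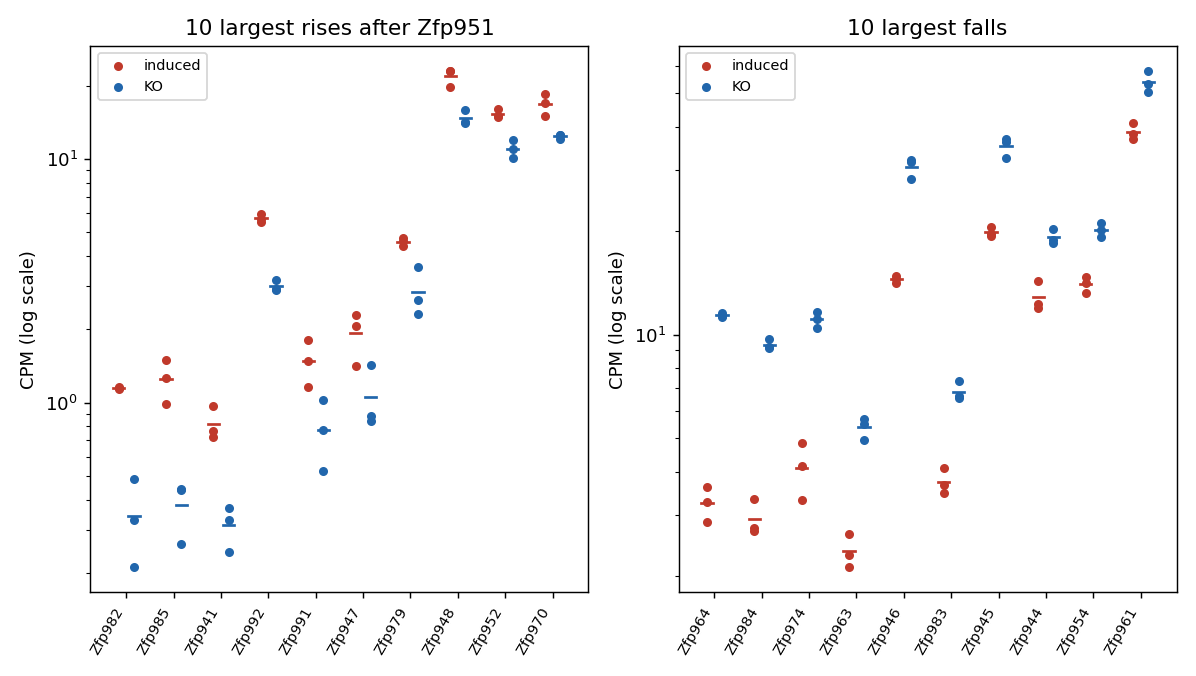
CPM in each library on a log scale for the 10 largest rises after Zfp951 (left) and the 10 largest falls (right); points are libraries, induced left of KO for each gene, and bars are means of 3. Most of the left panel lies at low levels, such as Zfp982 at 1.15 CPM in induced and 0.343 CPM in KO libraries, while the falls reach up to Zfp961 at 38.7 CPM in induced and 54.0 CPM in KO libraries.

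Some calls rested on single libraries or on the test. The call of Zfp976, at a log2 fold change of 0.20, was lost without each of the induced libraries and without KO replicate 1, where it was 0.08 (edgeR adjusted p = 0.411). The call of Zfp991 was lost without induced replicate 3 or KO replicate 3, that of Zfp942 without induced replicate 1 or KO replicate 3, and that of Zfp959 without induced replicate 1 or KO replicate 1. The call of Zfp971 was lost without induced replicate 3. With DESeq2 in place of edgeR, the calls of Zfp941, Zfp947, Zfp959, Zfp960, Zfp971, Zfp976, Zfp991 and Zfp995 were lost, with DESeq2 adjusted p between 0.0505 and 0.119, and 9 members were higher and 14 lower. In the authors' deposited DESeq2 table, Zfp941, Zfp947, Zfp960 and Zfp995 passed (DESeq2 adjusted p between 0.0353 and 0.0405). Zfp959, Zfp971, Zfp976 and Zfp991 did not pass there (DESeq2 adjusted p between 0.0532 and 0.0983).

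The 15 tested members that were not called had log2 fold changes between -0.24 and 0.47. Zfp940 had 327, 219 and 263 reads in induced libraries and 275, 254 and 287 in KO libraries, with a log2 fold change of 0.0093 (SE 0.10). The libraries of the groups interleave. Zfp932, the repressor of endogenous retroviruses named above, had 299, 225 and 240 reads in induced libraries and 306, 265 and 298 in KO libraries, a log2 fold change of -0.16 (SE 0.092) that did not pass. It shares 37.0% of its words, 34.9% with the neighbouring gene model Gm15446 alone. Zfp981 had the largest estimate of those not called, 0.47 with an SE of 0.44, from 6, 17 and 11 reads in induced libraries and 7, 10 and 8 in KO libraries, and the groups overlap.

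Members lay on 12 chromosomes, and 43 of the 63 fell into 5 runs of 3 or more with gaps of at most 1 Mb. The counts of calls in each run stand beside 31% higher and 31.6% lower over all tested genes. The run on chromosome 17, from 21567008 to 22867134, held 10 members, all tested, of which 7 fell and 2 rose, with a median log2 fold change of -0.46. Zfp948 and Zfp947 are the 2 that rose there, and Zfp943 was not called. The 6 tested protein-coding genes between these members had 0 higher and 4 lower and a median of -0.42. The run on chromosome 4, from 145510759 to 147848366, held 16 members, of which 9 were tested, 5 rose and 2 fell. Zfp984 and Zfp933, the 2 that fell, are the last members at its distal end. The median share of common words there was 61.2%. Among the members that rose there, Zfp982 and Zfp985 passed the filter on low counts only through their induced libraries. The run on chromosome 2, from 175372436 to 178078476, held 10 members, of which 3 were tested and 2 rose, with a median share of 87.4%. On chromosome 8, Zfp964 and Zfp963 fell and Zfp930 rose, and on chromosome 7 a run of 4 had 1 that rose, Zfp976. Positions along a run share sequence and neighbourhood, so these counts describe the runs and were not tested against each other.

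**Figure D4:**
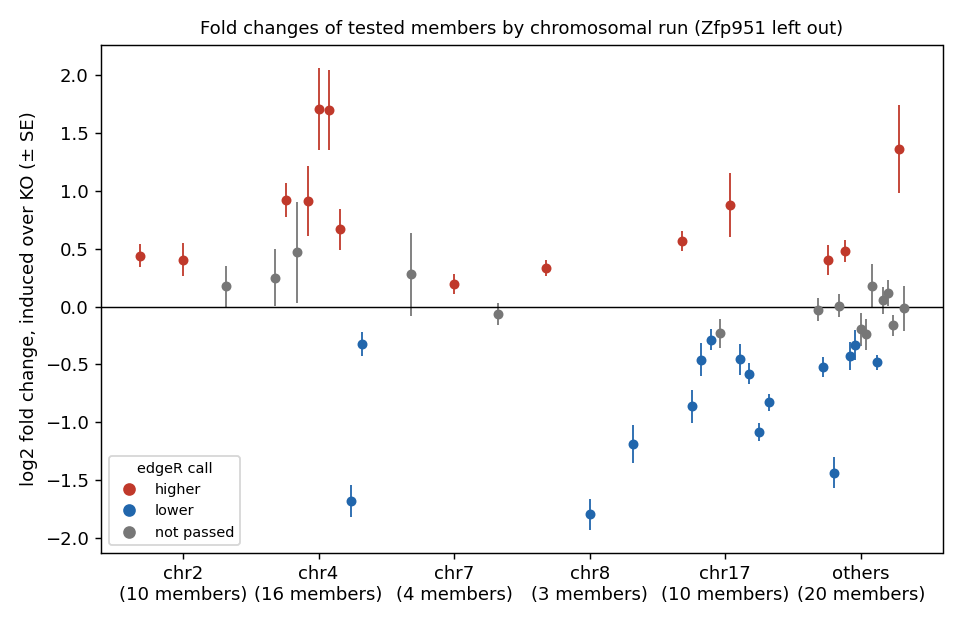
Log2 fold change, induced over KO, with its SE for each tested member except Zfp951, in genomic order within each chromosomal run of 3 or more members and for the members outside such runs. On chromosome 17, 7 of 10 points lie below 0 and are called, and on chromosome 4, 5 of 9 are called above 0 while the 2 at the right are called below.

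The coding sequences of the members, translated from the longest annotated coding transcript, held 0 to 21 C2H2 finger patterns with a median of 11. A KRAB box pattern was found in 59 of 63, and the 4 without it were Zfp956, Zfp957, Zfp972 and Zfp974. The pattern was widened once after the first matches were seen. The median was 11 patterns for the members that rose, for those that fell and for those not called. Across the 46 tested members, the log2 fold change and the number of fingers had a Spearman rho of -0.16, and the size of the change and the share of common words had 0.12.

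Of 21 genes of cofactors of KRAB proteins and of imprint protection, all tested, 5 were higher, 7 were lower and 9 did not pass, with a median log2 fold change of -0.0015. Over all tested genes, 31% were higher and 31.6% lower, so the count does not set this list apart. Trim28, the corepressor that KRAB domains recruit, had 1472 CPM in induced and 1575 CPM in KO libraries and did not pass, although it passed at a log2 fold change of -0.12 without induced replicate 3 (edgeR adjusted p = 0.0247). Its partner Setdb1, a histone methyltransferase, had 155.6 CPM in induced and 146.6 CPM in KO libraries and did not pass. Atf7ip, which stabilises SETDB1, fell by 0.41 on the log2 scale, and the heterochromatin protein gene Cbx5 fell by 0.40, while Cbx1 rose by 0.17 and Cbx3 did not pass at 0.0091. Of the DNA methyltransferase genes, Dnmt3a and Dnmt3b fell by 0.54 and 0.53 and Dnmt1, the maintenance enzyme, rose by 0.12. The TRIM28 relatives Trim33 and Trim24 fell by 0.47 and 0.19, and Chd3, a remodeller of the NuRD complex, fell by 0.45. Smarcad1, a remodeller that binds TRIM28, rose by 0.38, and Sumo2 rose by 0.14. The call of Dnmt1 was lost without induced replicate 1, KO replicate 1 or KO replicate 2 (edgeR adjusted p between 0.0566 and 0.0816). That of Sumo2 was lost without induced replicate 3, KO replicate 1 or KO replicate 2, where its log2 fold change was 0.093 (edgeR adjusted p = 0.177). The remaining genes, Chd4, Hdac1, Hdac2, Morc3 and Uhrf1, had log2 fold changes between -0.074 and 0.078 and did not pass. Zfp57, a KRAB zinc-finger gene that protects imprinted methylation, was the exception in size, with 261.1 ± 4.67 CPM in induced libraries and 102.6 ± 11.1 CPM in KO libraries (SD, n = 3 each; log2 fold change 1.35, SE 0.060). Zfp445, which shares that role, had 118.9 CPM in induced and 127.6 CPM in KO libraries and did not pass, although it passed at a log2 fold change of -0.13 without KO replicate 3 (edgeR adjusted p = 0.048).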

How the data were processed

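The members and gene lists were chosen with earlier results of these data known. The authors deposited raw read counts per gene for each library, with unstranded, sense and antisense columns. STAR, bcl2fastq, DESeq2 and mm10 are named in the submitters' processing notes, with no version. Per the labels' protocols, the library kit (TruSeq mRNA) keeps strand. The fourth column was used, since it held 96.2% to 96.3% of stranded gene reads. Rows naming no gene (15.1% to 17.6% of reads) were left out. The authors' deposited DESeq2 table gives, by its file headers, the mean normalised count (a signal), a log2 fold change with its error, a Wald score, p-values and a −log10 of the adjusted p. Its fold change and error are quoted for Zfp951 alone, and its adjusted p for members whose call was lost with DESeq2.

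Identifiers were matched without version to GENCODE M21 (GRCm38), 55230 of 55471. Counts were fitted with edgeR 4.0.16 in R 4.3.3 (filterByExpr, TMM, robust quasi-likelihood, group as the only term, two-sided, Benjamini-Hochberg over 15091 genes). The SE of a fold change is its size over the square root of F, with a median of 0.0837. The fit was also run on simulated data, with the outcome not reported here. The alternatives were DESeq2 1.42.0, its size factors, no filter, unstranded counts, a replicate term, other switching thresholds and leaving out each library. The titles call libraries replicates without saying that they were separate cultures, so errors may be technical; within groups, chi-square per degree of freedom between libraries was 2.25 to 5.18. Named members were all switched genes, the 10 largest rises and falls past the threshold, the 5 highest by CPM, those nearest the switching thresholds and those at 0. Members outside that rule (Zfp932, Zfp933, Zfp940, Zfp942, Zfp943, Zfp956, Zfp957, Zfp959, Zfp960, Zfp965, Zfp971, Zfp981, Zfp995, and Zfp966, Zfp973, Zfp980, Zfp987 and Zfp988, named for their promoters) were chosen after their values were seen. Promoters are from RefSeq.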

Additional observations from a re-analysis of the deposited data

How the results depend on the processing

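With 3 libraries a group, 1 member was switched under each setting tried (unstranded counts, counts scaled to the smallest library, thresholds of 0 to 10 or of 50 or more, and each library left out). Members higher in induced libraries numbered 15 and lower 16 with DESeq2 size factors, without a filter, with unstranded counts and with the replicate number as a block. With DESeq2 as the test, 9 were higher. Leaving out each library gave 12 to 15 higher and 14 to 16 lower. The median log2 fold change of tested members was 0.12 without a filter and 0.12 with DESeq2, which both take in 60 members, and -0.030 to 0.023 with a library left out, so its sign is not fixed. Replicate numbers did not pair the libraries (correlations of same-numbered deviations of -0.0026, 0.046 and 0.040); with the replicate block, Trim28 (edgeR adjusted p = 0.0347) and Zfp445 (edgeR adjusted p = 0.046) passed, as did Trim28 without induced replicate 3 (edgeR adjusted p = 0.0247) and Zfp445 without KO replicate 3 (edgeR adjusted p = 0.048); with the other libraries left out in turn, neither passed. Hdac1 changed sign with unstranded counts (0.0061) and with DESeq2 (0.0016). With a library left out, Hdac1 lay between -0.038 and 0.034, Cbx3 between -0.032 and 0.061 and Zfp937 between -0.052 and 0.029. The log2 fold change of Zfp951 lay between 8.44 and 10.72 with a library left out. The cause of these changes was not tested. Members with few reads have wide errors, and the part of multimapped reads in the counts of members that share words with copies was not tested.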

Other observations

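Zfp939, annotated as a transcribed pseudogene and so not among the protein-coding members, had 36, 30 and 39 reads in induced libraries and 21, 23 and 15 in KO libraries.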
